A study of Arabidopsis thaliana with 3 samples.

Results

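AT5G20790 and AT1G08310 are 2 Arabidopsis thaliana genes whose transcripts are known to respond to phosphate supply. They were chosen together with 8 further loci of the phosphate starvation response, among them genes of SPX proteins, acid phosphatases and sulfolipid synthesis. Of these 10 loci, the probe-to-gene table used here named AT5G20790 and AT1G08310, and the other 8 were not analysed here. The 2 genes are thus 2 of 13356 named genes on the arrays. Both were selected on their measured values: low intensities in the overexpressors relative to wild type had been seen on these same arrays. Their levels and ratios are therefore given as a description, with no test.

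RNA came from whole seedlings, 2 weeks old, kept on half-strength MS medium under long days, and was read on Affymetrix arrays. The 3 groups, with 1 array each, were wild-type plants, transgenic plants that overexpress DRB2 and transgenic plants that overexpress DRB3. The labels give no promoter, no number of lines or pooled plants and no phosphate treatment, and the design text of the series is about a different study (salt treatment and a kinase transgene). DRB proteins bind double-stranded RNA and are known from small RNA pathways. None of the 5 genes of the family (DRB1 to DRB5) was named by the table, so the transgenes were not checked.

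Plants take up phosphorus as inorganic phosphate. When the supply runs short, the transcription factor PHR1 and its relatives switch on genes for uptake, for release of phosphate from organic compounds and for replacing phospholipids by sulfolipids and galactolipids. When phosphate is plentiful, cells make inositol pyrophosphates, which SPX domain proteins bind, and SPX proteins then hold PHR1 inactive. Transcript levels of starvation-induced genes are therefore widely read as a gauge of phosphate status, although many respond to other signals too.

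The levels below are MAS5 intensities, a linear brightness per probe set. A floor of 109 intensity units was set, below which values were taken as the floor. The words rose and fell are kept for floored intensities at least 2-fold apart. Without replicates no error or p-value can be attached to a difference, and having so few arrays limits the precision throughout. In the order wild type, DRB2 overexpressor, DRB3 overexpressor, the median probe set read 188, 196 and 187, and 7216, 7405 and 7200 genes lay above the floor.

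AT5G20790, a protein-coding gene without an assigned function in the sources used here, was among the strongly expressed genes of wild type. Its probe set, 246001_at, read 3452 in wild type, 967 with DRB2 overexpressed and 327 with DRB3 overexpressed. Wild type was thus high, the DRB2 overexpressor intermediate and the DRB3 overexpressor low, and all 3 values were above the floor, the lowest by 3.01 times. In wild type the gene stood at percentile 97.4 of all named genes, at percentile 88.0 with DRB2 overexpressed and at percentile 67.1 with DRB3 overexpressed. It went from rank 352 of 13356 in wild type to rank 1607 and rank 4401.

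AT1G08310 encodes a protein of the alpha/beta hydrolase fold, a large family that includes esterases and lipases. Its probe set, 261814_at, read 534 in wild type, 346 with DRB2 overexpressed and 111 with DRB3 overexpressed. The order of the arrays was the same as for AT5G20790. The value in the DRB3 overexpressor was 1.02 times the floor, at the edge of what is treated here as measured. The gene stood at percentile 78.2, 68.1 and 46.5 of all named genes on the same arrays.

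**Figure D1:**
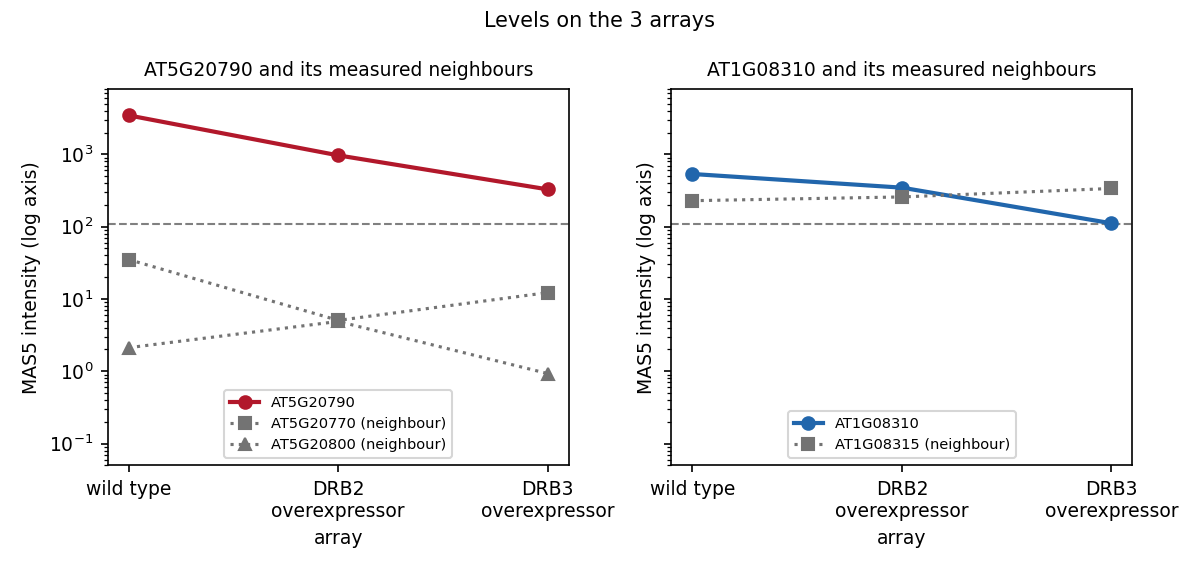
MAS5 intensity (vertical, log axis) on the 3 arrays (horizontal) for AT5G20790 (left) and AT1G08310 (right), with the measured genes among the nearest neighbours on the chromosome in grey and the floor of 109 dashed; each point is 1 array, and lines only join points of a gene. AT5G20790 goes from 3452 to 967 and 327 and AT1G08310 from 534 to 346 and 111, while AT1G08315 goes from 228 to 257 and 337.

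Setting the DRB2 overexpressor against wild type addresses which transcripts differ when DRB2 is overexpressed. AT5G20790 fell 3.57-fold, a log2 ratio of -1.84. AT1G08310 was 1.55-fold lower, a log2 ratio of -0.63, and did not pass 2-fold. In this comparison 0.412% of all genes fell at least 2-fold and 0.943% changed in either direction. Among the 6975 genes above the floor on both arrays, whose central 95% of log2 ratios ran from -0.73 to 0.76, AT5G20790 ranked 1 from the lowest ratio and AT1G08310 ranked 285. AT1G08310 therefore lay inside that range and AT5G20790 outside it. Among all 13356 genes, floored values included, AT5G20790 ranked 2 and AT1G08310 ranked 316.

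For DRB3 the corresponding question is put to the DRB3 overexpressor and the same wild-type array. AT5G20790 fell 10.5-fold (log2 ratio -3.40) and AT1G08310 fell 4.81-fold (log2 ratio -2.27). In this comparison 1.53% of all genes fell at least 2-fold and 2.97% changed in either direction. Among 6877 genes above the floor on both arrays, with a central 95% from -1.01 to 0.98, the genes ranked 1 and 6 from the lowest ratio. Both lay well outside that range. Among all 13356 genes, floored values included, they ranked 2 and 7. With the floor raised to 302, the intensity at percentile 60, AT1G08310 was at least 1.77-fold lower and no longer passed 2-fold.

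The overexpressors can also be set against each other, on arrays that were each used in a comparison above. From the DRB2 to the DRB3 overexpressor AT5G20790 fell 2.95-fold (log2 ratio -1.56) and AT1G08310 fell 3.11-fold (log2 ratio -1.64). Both passed 2-fold, where 0.614% of all genes fell and 1.19% changed in either direction. Among 6982 genes above the floor on both arrays they ranked 10 and 5 from the lowest ratio, and among all 13356 genes 11 and 6. The step from the DRB2 to the DRB3 overexpressor was thus of similar size for both genes, while the step from wild type to the DRB2 overexpressor was -1.84 for AT5G20790 and -0.63 for AT1G08310. With the floor at 302 the log2 ratio of AT1G08310 in this comparison was -0.19 or lower.

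**Figure D2:**
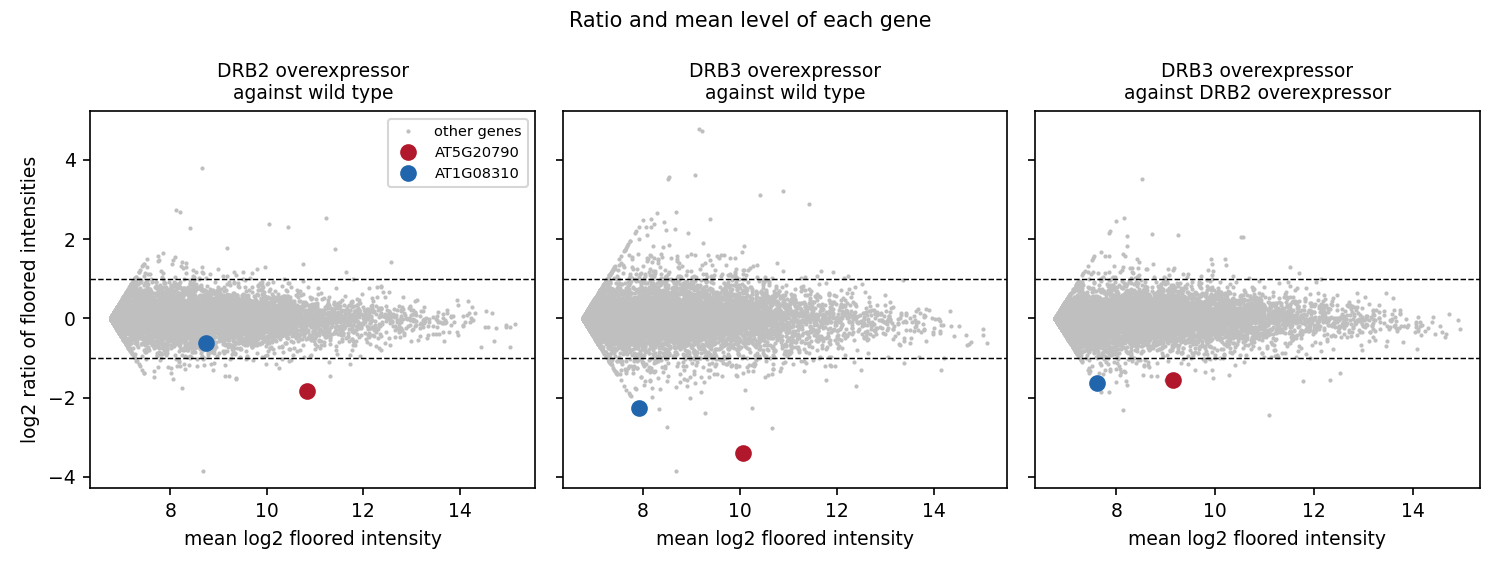
Log2 ratio of floored intensities (vertical) against mean log2 floored intensity of the 2 arrays compared (horizontal) for 13356 genes (grey), with AT5G20790 in red, AT1G08310 in blue and 2-fold marked by dashed lines. AT5G20790 lies below the lower line in all 3 panels, at -1.84, -3.40 and -1.56, and AT1G08310 lies between the lines at -0.63 in the first.

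An array-wide measure followed the same order as the levels of these genes, while another did not. The control transcripts' 3' signal over their 5' signal, a measure that rises as RNA or its labelled copy is shorter, was highest in wild type and lowest in the DRB3 overexpressor in 6 of 6 control pairs. The size of the difference varied between pairs, given here in the order wild type, DRB2 overexpressor and DRB3 overexpressor. The GAPDH pairs gave 9.31, 5.77 and 3.89, and 2.42, 2.11 and 1.5. The actin pairs gave 29.2, 24.7 and 17.7, and 13.0, 6.45 and 5.01. The ubiquitin pairs gave 4.66, 4.61 and 3.89, and 2.80, 2.47 and 2.01. The 27 poly(A) spike-in probe sets were below their wild-type readings by a median of 4.36-fold (DRB2 array) and 1.12-fold (DRB3 array). The 25S rRNA control, 1 probe set, was 3.60-fold below wild type on the DRB2 array and 1.14-fold below it on the DRB3 array. Both kinds of control were thus lowest on the DRB2 array, an order that the 2 genes did not share. The part of these values in the ratios of AT5G20790 and AT1G08310 was not tested.

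Whole seedlings mix roots and shoots, and in such samples a smaller share of the cells that express a gene and less RNA per cell cannot be told apart. Of 7 root and root hair markers 2 were measured, both genes of root hair expansins, which loosen cell walls. EXPA18 read 184 in wild type, 278 with DRB2 overexpressed and 439 with DRB3 overexpressed, where it rose 2.39-fold over wild type. EXPA7 read 52.1, 95.1 and 158 in the same order, with the DRB3 overexpressor alone above the floor. Their summed intensity, which includes EXPA7 readings under the floor, was 236, 374 and 597. These root hair genes were thus highest on the array where AT5G20790 and AT1G08310 were lowest. Of 5 shoot markers 1 was measured. It was RCA, for Rubisco activase, which read 33718, 29895 and 21690 and thus stood 1.55-fold below wild type with DRB3 overexpressed. None of the measured markers was at 0. The part of tissue makeup in the 2 genes' ratios was not tested.

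The other genes of the phosphate response were taken from 4 lists of 68 genes for sensing and signalling, transport, phosphatases and nucleases, and membrane lipid remodelling. The table named 7 of the 68, and 5 of these were above the floor on at least 1 array. None of the 7 passed 2-fold in any of the 3 comparisons at the floor of 109, where 0.943%, 2.97% and 1.19% of all genes did. With the floor at percentile 20, an intensity of 26.7, AT5G15070 passed in the lower direction in both comparisons of the DRB3 overexpressor. With 16 added in place of a floor AT5G15070 again passed in both, and WRKY42 passed in both overexpressors against wild type. The 7 genes had a median log2 ratio to wild type of -0.0036 with DRB2 and 0 with DRB3 overexpressed. Genes under the floor on both arrays were taken as 0, and the median over all genes was 0 in both. None of the 16 phosphatase and nuclease genes and none of the 14 lipid genes was named, so the most direct readouts of starvation were not analysed here.

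In the signalling group, AT5G15070 is a kinase gene for the inositol pyrophosphates that SPX proteins bind. It read 183 in wild type, 107 with DRB2 overexpressed and 31.2 with DRB3 overexpressed. This is the array order of AT5G20790 and AT1G08310, but both overexpressors lay under the floor. AT5G15070 was thus at least 1.68-fold lower than wild type in each and did not pass 2-fold. With the floor at percentile 20, where all 3 values count as measured, AT5G15070 was 1.70-fold lower than wild type with DRB2 overexpressed. It fell 5.86-fold with DRB3 overexpressed, and 3.44-fold between the overexpressors. Its call in the DRB3 overexpressor therefore depends on where the floor is set. SIZ1, for a SUMO ligase that restrains phosphate starvation responses, read 648, 562 and 687. Its other probe set read between 4.62 and 45.9, under the floor on all 3 arrays. WRKY6 and WRKY42 encode transcription factors that repress the phosphate exporter gene PHO1. WRKY6 read 136, 135 and 165, and WRKY42 was under the floor throughout, at 30.3, 3.92 and 4.12.

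LPR1 and LPR2 encode multicopper oxidases that act in the arrest of root growth on low phosphate. LPR2 read 1056 in wild type, 1096 with DRB2 overexpressed and 1245 with DRB3 overexpressed, log2 ratios to wild type of 0.05 and 0.24. LPR1 stayed under the floor on each array, at 108, 87.1 and 86.6. The single transport gene measured was PHT5;1, for the transporter that loads phosphate into the vacuole. It read 959, 927 and 889, log2 ratios to wild type of -0.05 and -0.11. SIZ1, LPR2 and PHT5;1, which were well above the floor, thus differed by at most 1.22-fold between any pair of arrays. The phosphatase, nuclease and lipid genes were not named, so these levels do not describe the phosphate response as a whole.

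**Figure D3:**
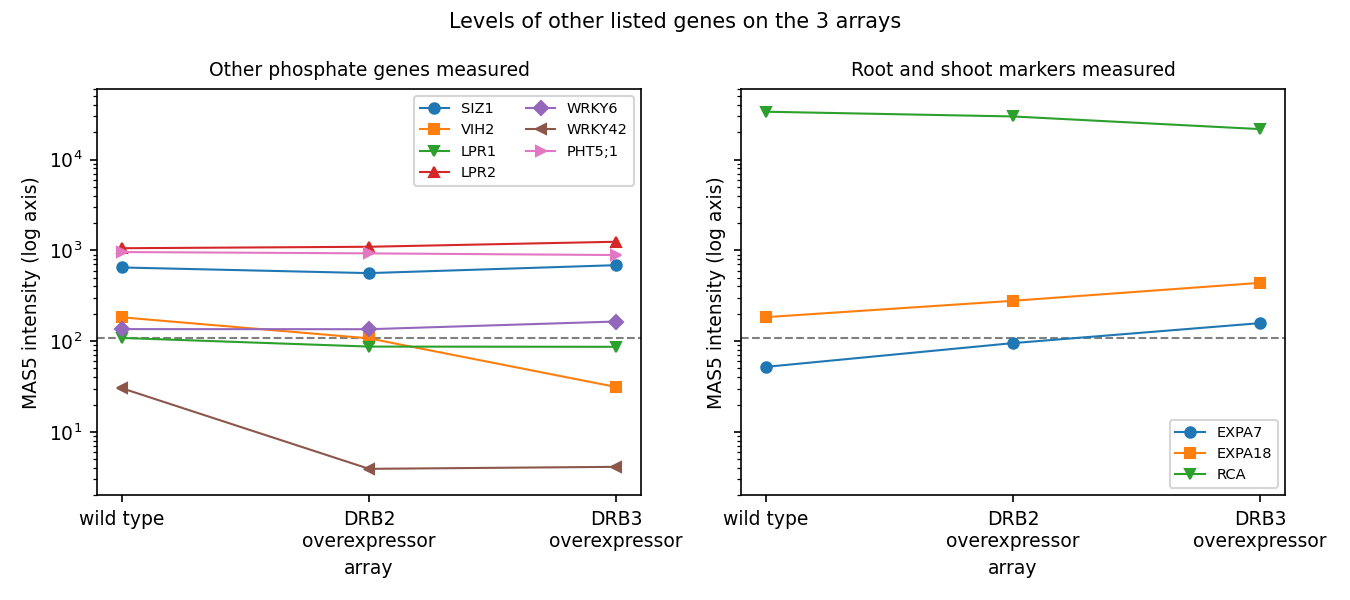
MAS5 intensity (vertical, log axis) on the 3 arrays (horizontal) for the 7 other phosphate genes that were measured (left) and the 3 root and shoot markers measured (right), with the floor of 109 dashed; each point is 1 array. SIZ1, LPR2 and PHT5;1 stay between 562 and 1245, and AT5G15070, labelled VIH2 in the panel, goes from 183 to 31.2. The root hair marker EXPA18 goes from 184 to 439 while RCA goes from 33718 to 21690.

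Genes with a pattern like that of each gene were ranked by the Euclidean distance between their pairs of log2 ratios, DRB2 and DRB3 overexpressor each to wild type. This used 6778 other genes above the floor on all 3 arrays. It is a likeness over 3 arrays of which 1 is shared by both ratios. AT5G20790 had few near genes, 0 within a distance of 0.5 and 2 within 1. Its ratios to wild type were the lowest among genes above the floor on the arrays compared, so these counts partly follow from their size. The nearest was ATSPS4F, for a sucrose-phosphate synthase, an enzyme of sucrose synthesis, at a distance of 0.76. ATSPS4F read 4173 in wild type, 1532 with DRB2 overexpressed and 619 with DRB3 overexpressed. AT1G72920, a gene with a TIR domain as found in immune receptors, was as near (0.76) and read 936, 342 and 139. The next were STZ, for a zinc finger repressor induced by stress (1.36), AT1G19960 (1.46) and AT3G03790 (1.56).

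AT1G08310, whose ratios to wild type were smaller in size, had 6 genes within 0.5 and 57 within 1. AT4G29780 was nearest, at a distance of 0.05, and read 713 in wild type, 447 with DRB2 overexpressed and 146 with DRB3 overexpressed. It was 1.60-fold lower in the DRB2 overexpressor, below the 2-fold mark, and fell 4.89-fold in the DRB3 overexpressor. AT1G60590, of the pectin lyase-like family, followed at 0.27, reading 1005, 688 and 249. AT1G19960 (0.29), STZ (0.33) and AT5G52540 (0.48) completed the nearest 5. AT1G19960 and STZ were on both lists. STZ read 1417, 743 and 271, and AT1G19960 read 2649, 1401 and 553. AT5G20790 and AT1G08310 themselves lay 1.66 apart, with AT1G08310 ranking 8 among the genes nearest to AT5G20790 and AT5G20790 ranking 511 among those nearest to AT1G08310. With the floor at percentile 60, 3 of the 5 genes nearest to AT5G20790 and 0 of the 5 nearest to AT1G08310 were again among the nearest 5, and with the floor at percentile 20, 2 of 5 for each gene.

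**Figure D4:**
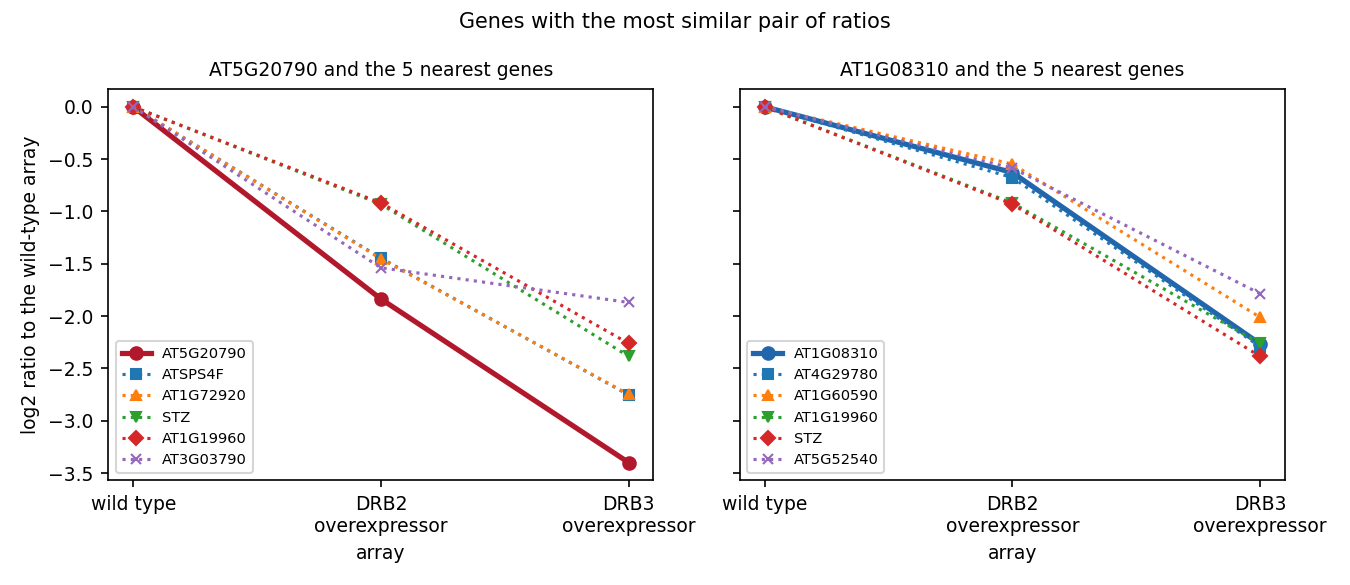
Log2 ratio to the wild-type array (vertical) on each array (horizontal) for AT5G20790 (left, red) and AT1G08310 (right, blue) with the 5 genes of the nearest ratio pairs (dotted); wild type is 0 by construction. AT5G20790 lies below its nearest genes in both overexpressors, at -1.84 and -3.40, while AT4G29780 lies at a distance of 0.05 from AT1G08310.

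In the RefSeq annotation of assembly TAIR10.1, AT5G20790 is a gene of 1246 bases with 2 transcripts. The 2 annotated genes on each side include 3 pseudogenes. Both measured neighbours were pseudogenes under the floor on all 3 arrays. AT5G20770 read between 5.05 and 35.0. AT5G20800, which lies 194 bases from AT5G20790, read between 0.929 and 4.88.

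AT1G08310 spans 1806 bases with 3 transcripts in the same annotation, and overlaps AT1G08300 by 177 bases on one side and, on the other, AT1G08315 by 118 bases and the long non-coding RNA gene AT1G04647 by 14 bases. AT1G08300 and AT1G04647 were not named by the table. AT1G08315 read 228 in wild type, 257 with DRB2 overexpressed and 337 with DRB3 overexpressed, the reverse order of AT1G08310. With DRB3 overexpressed it was 1.48-fold above wild type, a log2 ratio of 0.56, and did not pass 2-fold. The annotation table gives no strand and the positions of the probes were not used here, so a part of the overlap in either reading was not tested.

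**Figure D5:**
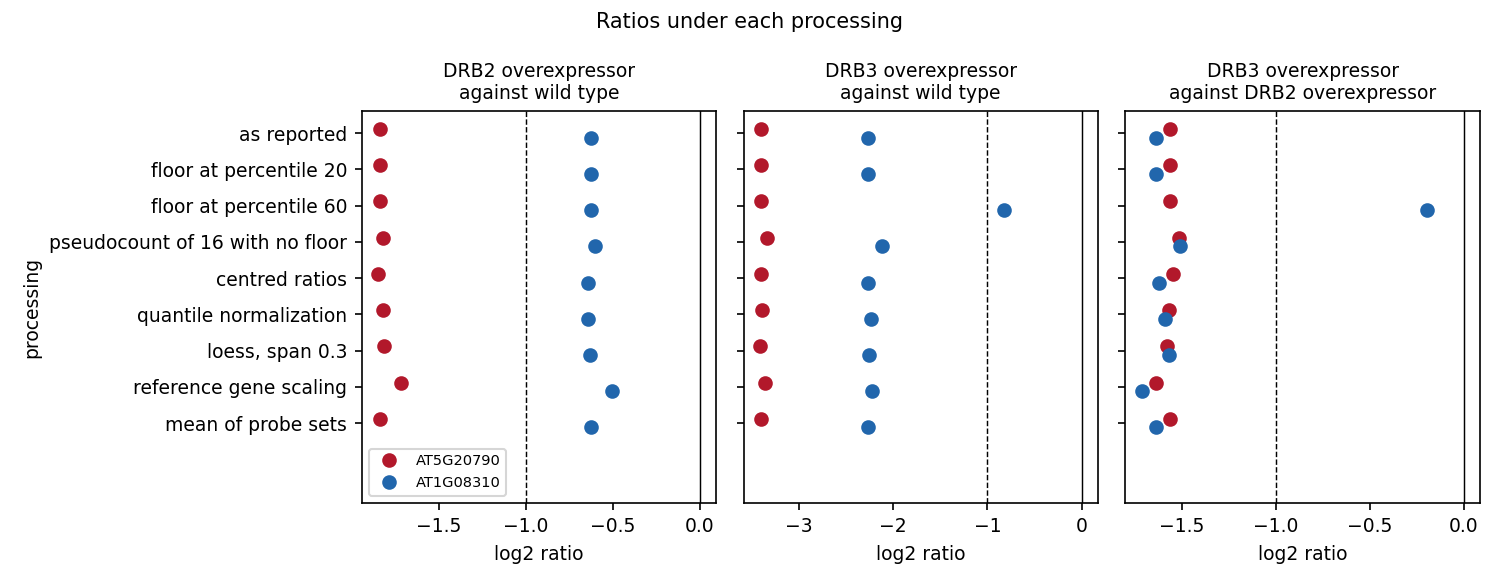
Log2 ratio (horizontal) of AT5G20790 (red) and AT1G08310 (blue) in the 3 comparisons (panels) under each processing (vertical), with 2-fold lower marked by a dashed line. AT5G20790 stays between -1.85 and -1.71, -3.41 and -3.34, and -1.64 and -1.52 in the 3 panels, and AT1G08310 moves to bounds of -0.82 and -0.19 in the last 2 panels with the floor at percentile 60.

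Across 8 other ways of processing, AT5G20790 stood 3.28-fold to 3.60-fold below wild type with DRB2 overexpressed and 10.1-fold to 10.6-fold below it with DRB3 overexpressed. AT1G08310 stood 1.42-fold to 1.56-fold below wild type with DRB2 overexpressed, under 2-fold in each. With DRB3 overexpressed it was at least 2-fold lower in 7 of the 8, the exception being the floor at percentile 60.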

How the data were processed

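The authors deposited linear MAS5 intensities, 1 per probe set for every array; MAS5 is named in the submitters' processing notes, with its version not given in the sources used here. No further scaling was applied, because the arrays had equal 2% trimmed means (500.05). Of 22810 probe sets, 64 controls were left out, 13513 had 1 gene in the probe table, 503 had several and were not used, and 8730 were unnamed here. Each gene was read from whichever of its probe sets had the highest mean, giving 13356 genes, of which 13286 matched a RefSeq table (assembly TAIR10.1, whose coordinates are not printed). The floor was percentile 40 of the probe sets without controls, averaged over the arrays. With 1 array per group no test was run. The genes and lists were chosen with earlier results of these data known. Named genes were the rule's genes, the measured genes of the phosphate lists, up to 4 of each marker list, the 5 nearest in ratio pair and the annotated neighbours. Lists for sulfate starvation (9 genes) and nitrate response (9 genes) had 0 measured members. A planned promoter motif count was not run, since no sequences were used here. The tools were matplotlib 3.10.9, statsmodels 0.14.6, scipy 1.17.1, pandas 2.3.3 and numpy 2.4.6 under Python 3.11.15.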

Additional observations from a re-analysis of the deposited data

How the results depend on the processing

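No paired analysis was possible because each group holds 1 array. The values were recomputed with the floor at percentile 20 or 60, with log2 of the value plus 16 in place of a floor, and with 4 scalings (median centring, quantiles, loess of span 0.3, and 3 reference genes). Probe sets of a gene were also averaged, and the threshold was set to 1.5-fold or 3-fold. A value is said to have moved where it changed by over 1.5-fold. The log2 ratios of AT5G20790 could not change with either other floor, since all its values lay above both. Nor could they change with averaged probe sets, as it had no other probe set, or with the thresholds. With the added 16 and the 4 scalings, the log2 ratios of AT5G20790 did not move. Those of AT1G08310 moved with the floor at percentile 60, from -2.27 to -0.82 in the DRB3 overexpressor against wild type and from -1.64 to -0.19 against the DRB2 overexpressor, since its value in the DRB3 overexpressor then lay under the floor. Counts of genes at least 2-fold apart, 126 for DRB2 against wild type, 397 for DRB3 against wild type and 159 between the overexpressors, were 591, 769 and 568 with the floor at percentile 20, 53, 205 and 62 at percentile 60 and 941, 1020 and 871 with the added 16. They were 843, 1457 and 899 at 1.5-fold and 13, 78 and 21 at 3-fold. Scaling to the reference genes shifted the median log2 ratio of the DRB2 overexpressor to wild type by 0.12 and gave 117 higher and 35 lower there, against 71 and 55 as reported, and 59 higher and 117 lower between the overexpressors, against 77 and 82. The median of the phosphate lists ranged from -0.20 to 0.04 over all comparisons and alternatives. The ratios of single phosphate genes under the alternatives and the likeness check were added after seeing the data. All of the nearest 5 genes of AT5G20790 and AT1G08310 were again the nearest 5 in 6 of the 8 alternatives. Median centring and reference gene scaling could not alter distances between genes that stayed above the floor, since they shift such genes' ratios equally. Averaging could act only on genes with several probe sets. Both changes of floor altered the nearest 5 of both genes. The single array per group limits every value above.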
